A study of Mus musculus with 16 samples.

Results

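The genes described are 9 leukocyte and antigen presentation genes (Ptprc, Cd3e, Cd3d, Cd207, Cd74, H2-Aa, H2-Ab1, H2-Eb1 and Ciita) of the 22225 protein-coding genes of the mm9 annotation. They were chosen as genes by which immune cells in the CD34-negative sort could be looked for, and each was read in every ChIP-seq peak list within 3000 bp of any of its annotated transcript starts and over its gene body. The study profiled 3 histone marks in 4 populations of cells sorted from the back and belly skin of male, wild-type CD1 x FVB mice. EA-HFSCs, the hair follicle stem cells of the bulge at early anagen, were sorted as CD34+/α6-integrin+ at PD22 to PD25, and LC-HFSCs, the same cells at late catagen, at PD38 to PD44. Their counterparts at the 2 stages, called non-EA-HFSCs and, at catagen, non-LC-HFSCs, were sorted as CD34-/α6-integrin+ at the same ages and held mainly epidermal and lower outer root sheath cells. The labels give 15 to 20 mice, whose nuclei were digested with micrococcal nuclease. The methods name no antigen by which leukocytes were removed.

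The series holds 16 samples, of which 12 have a peak list and 4 are IgG controls without one. Reads of independent experiments had been pooled by the authors before peak calling, so that each population and mark is represented by 1 list, no spread between replicates can be given, and none of the differences below was tested. The H3K4me3 lists held 21482 peaks in EA-HFSCs, 14718 in LC-HFSCs, 24498 in non-EA-HFSCs and 18996 in non-LC-HFSCs. The H3K27me3 lists held 25534, 1909, 17488 and 15273 peaks in the same order. The H3K9me3 lists held 42277, 1414, 17873 and 18236 peaks. The H3K27me3 and H3K9me3 lists of LC-HFSCs were thus far shorter than the others. An H3K27me3 peak lay at a start of 3.74% of all genes in LC-HFSCs, against 13.0% to 16.8% in the other populations. For H3K9me3 the shares were 0.508% in LC-HFSCs and 4.15% to 48.0% in the others. The lists do not give read depth. According to the study's methods the LC-HFSC libraries had more reads than those of EA-HFSCs.

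Ptprc encodes CD45, the phosphatase carried by nearly all nucleated blood cells. Cd3e and Cd3d encode subunits of the T cell receptor complex, which in mouse epidermis is found on dendritic epidermal T cells, and Cd207 encodes langerin, the lectin of Langerhans cells. Antigen-presenting cells display peptides on MHC class II molecules, whose chains are encoded by H2-Aa, H2-Ab1 and H2-Eb1, with the invariant chain Cd74 as their chaperone and CIITA as the coactivator that switches the class on. H3K4me3 is known for marking the starts of active and poised genes, H3K27me3 is laid down by Polycomb complexes at silent or poised genes, and H3K9me3 is a mark of heterochromatin.

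The sort could be checked on Cd34, the gene of the antigen that separates HFSCs from non-HFSCs. Cd34 carried an H3K4me3 peak at its start in EA-HFSCs and LC-HFSCs, which covered 62.5% and 61.7% of its start window (all bases within 3000 bp of an annotated start), and no H3K4me3 peak in either non-HFSC list. Its H3K27me3 cover was the reverse, at 0% in both HFSC lists, 64.8% in non-EA-HFSCs and 29.2% in non-LC-HFSCs. Itga6, which encodes α6-integrin, had an H3K4me3 peak in all 4 lists, with 14.8% of its window covered in EA-HFSCs, 12.8% in LC-HFSCs, 12.7% in non-EA-HFSCs and 12.6% in non-LC-HFSCs. The basal keratins Krt5 and Krt14 likewise had an H3K4me3 peak in all 4 lists. So did 12232 of the 22225 genes, and such a peak cannot tell the sorts apart. The lists thus followed the labelled sort at Cd34, whose H3K4me3 pattern was shown by 51 of all genes (0.229%).

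Most of the 9 genes carried no H3K4me3 at a start in any population. An H3K4me3 peak lay within 3000 bp of a start of 2 of 9 members in EA-HFSCs, against 62.6% of all genes, and of 3 of 9 in non-EA-HFSCs, against 61.8%. The corresponding counts were 1 of 9 in LC-HFSCs, against 56.0% of all genes, and 1 of 9 in non-LC-HFSCs, against 58.9%. Ptprc, Cd3e, Cd3d, Cd207, Cd74 and H2-Aa were without the mark in all 4 lists, which made 6 of 9 members, or 66.7%, against 35.8% of all genes. H2-Ab1 alone among the members had it in all 4, as did 12232 of the 22225 genes. No member had H3K4me3 at a start in both non-HFSC lists and in neither HFSC list, a pattern shown by 99 of all genes (0.445%). The opposite pattern was shown by 51 (0.229%).

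By stage, the contrast between HFSCs and non-HFSCs in H3K4me3 rested on a margin of 13 bp. At early anagen 1 of 9 members, H2-Eb1, was counted in non-EA-HFSCs and not in EA-HFSCs, where 1.43% of all genes were. None was counted in EA-HFSCs and not in non-EA-HFSCs, the share of all genes being 2.19%. At late catagen none of the members differed, while 3.69% of all genes had a peak in non-LC-HFSCs and not in LC-HFSCs and 0.801% the reverse. H2-Eb1 was called through the edge of a peak that also lay within the gene in the other 3 lists, as given below.

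H3K27me3 was found at more of the members than at genes at large. At the starts it was present at 4 of 9 members in EA-HFSCs, against 14.1% of all genes, and at 5 of 9 in non-EA-HFSCs, against 16.8%. In non-LC-HFSCs it was present at 4 of 9, against 13.0% of all genes, and in LC-HFSCs at 0 of 9, against 3.74%. Cd3e, Cd207 and H2-Ab1 had it in the 3 lists other than that of LC-HFSCs, Cd3d in the 2 lists of early anagen and Ciita in the 2 non-HFSC lists. Ciita was thereby the 1 member counted in non-EA-HFSCs and not in EA-HFSCs, where 5.36% of all genes were counted, and no member showed the reverse, shown by 2.59%. At late catagen 4 of 9 members were counted in non-LC-HFSCs and not in LC-HFSCs, where 9.28% of all genes were counted, and none the reverse, shown by 0.0585%. With each list held to its 1909 highest-scoring peaks, the number in the shortest H3K27me3 list, 1 member was counted in EA-HFSCs and 0 in the other populations, against 5.08% of all genes in EA-HFSCs and 3.74% to 6.16% in the others. With peaks of a score of at least 100, 4 members were counted in non-EA-HFSCs and not in EA-HFSCs, against 4.04% of all genes.

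**Figure D1:**
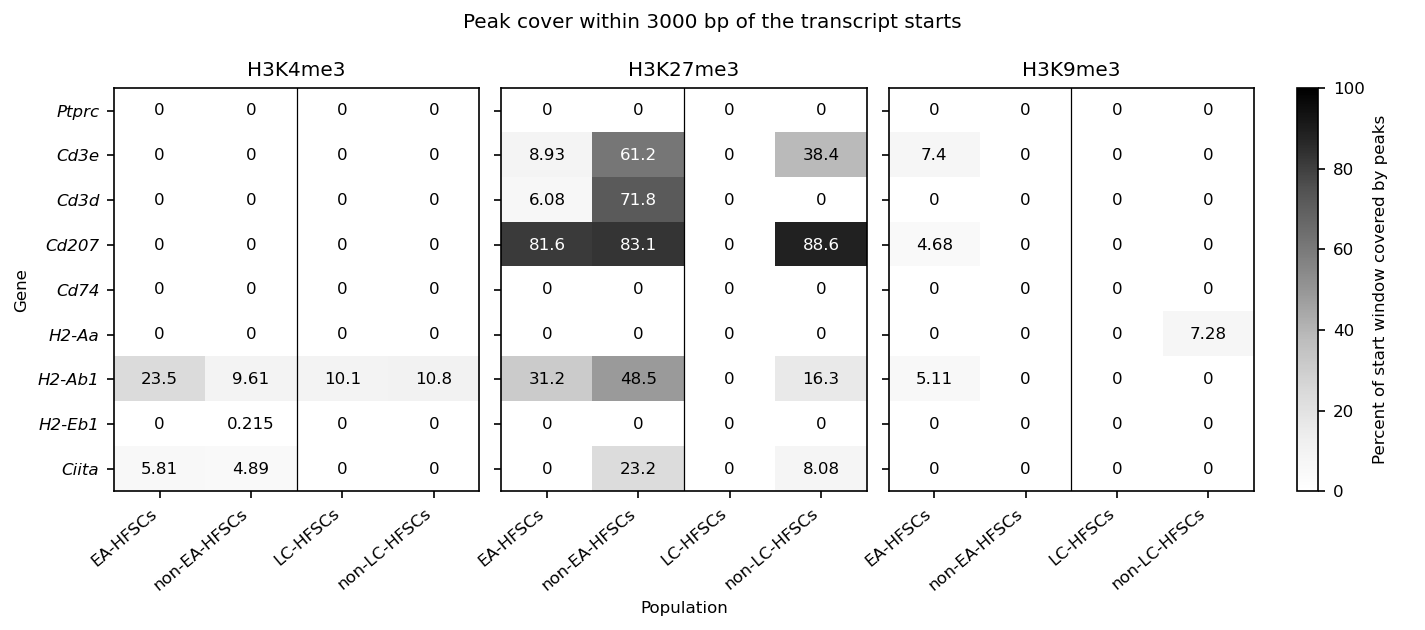
Percent of each gene's start window (3000 bp on either side of its annotated starts, merged) covered by peaks, with the genes as lines and the 4 populations as columns, for H3K4me3, H3K27me3 and H3K9me3. H2-Ab1 is covered by H3K4me3 in all 4 populations, and the H3K27me3 cover of Cd3e and Cd3d is 61.2% and 71.8% in non-EA-HFSCs and 8.93% and 6.08% in EA-HFSCs.

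The share of the start window under H3K27me3 peaks gave a graded view, shown in the plot of cover by gene and population. At early anagen 5 members had more cover in non-EA-HFSCs than in EA-HFSCs, 0 had less and 4 were equal, while 12.7% of all genes had more and 5.47% less. The median difference was 1.52 percentage points over the members and 0 over all genes. At late catagen 4 members had more cover in non-LC-HFSCs, 0 had less and 5 were equal, while 12.4% of all genes had more and 0.423% less. H3K27me3 cover of the start windows was thus at no member lower in non-HFSCs than in the HFSCs of the same stage, within lists whose lengths differed as stated above.

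H3K9me3 was at a start of 3 of 9 members in EA-HFSCs, against 48.0% of all genes, of 0 of 9 in non-EA-HFSCs, against 4.15%, of 0 of 9 in LC-HFSCs, against 0.508%, and of 1 of 9 in non-LC-HFSCs, against 14.2%. The 3 members counted in EA-HFSCs and not in non-EA-HFSCs (Cd3e, Cd207 and H2-Ab1) stood beside 45.4% of all genes, and no member showed the reverse, shown by 1.48%. The 1 member counted in non-LC-HFSCs and not in LC-HFSCs, H2-Aa, stood beside 13.8% of all genes, the reverse being 0.108%. None of these peaks covered more than 7.40% of a member's start window, the value of Cd3e in EA-HFSCs. With a window of 1000 or 2500 bp, the 3 members of early anagen became 1, beside 43.1% and 44.9% of all genes. They became 0 with a score of at least 100 or lists of equal length, beside 16.4% and 3.44%. The 1 member of late catagen became 0 with a score of at least 50, beside 7.05%.

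Ptprc (chr1:139959438-140071882, minus strand, mm9), the general leukocyte marker, was without any peak at its starts in all 12 lists. The H3K4me3 peak nearest to a start lay 246308 bp away in EA-HFSCs, 246545 bp in LC-HFSCs, 246162 bp in non-EA-HFSCs and 153005 bp in non-LC-HFSCs. Over its gene body it held H3K27me3 peaks with scores of 45.6 and 41.8 in EA-HFSCs and of 53.0 in non-EA-HFSCs, where the score rises with the negative log10 of the p-value and 40 is the authors' threshold for this mark (50 for H3K4me3). They covered 1.27% of the gene in EA-HFSCs and 1.19% in non-EA-HFSCs. An H3K9me3 peak with a score of 63.5 covered 0.494% in EA-HFSCs, within the bases of an H3K27me3 peak of the same population. Neither non-HFSC list therefore held an H3K4me3 peak anywhere near the Ptprc starts, and a share of leukocytes too small to give a peak at this threshold would not be seen in these lists.

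Cd3e (chr9:44806826-44817673, minus strand) had no H3K4me3 peak over its start or body. H3K27me3 covered 8.93% of its start window in EA-HFSCs, 0% in LC-HFSCs, 61.2% in non-EA-HFSCs and 38.4% in non-LC-HFSCs. Over the gene body the shares were 37.01%, 0%, 100% and 36.0% in the same order. In non-EA-HFSCs 1 peak of 13993 bp ran from 674 bp before the start to 13318 bp after it, past the end of the gene, with a score of 385 and rank 1983 of 17488, so that 11.3% of that list scored higher. In EA-HFSCs 3 separate peaks lay over the gene, and the 1 reaching the start window began 2465 bp downstream of the start, with a score of 69.8. The start of Cd3e itself lay under H3K27me3 in non-EA-HFSCs alone among the 4 lists.

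Cd3d (chr9:44789876-44795135, plus strand) is the neighbour of Cd3e, and its start lies 1362 bp from that of Cd3g, a further subunit gene, so that the start windows of Cd3d and Cd3g overlap and share peaks. H3K27me3 covered 6.08% of the Cd3d window in EA-HFSCs, 71.8% in non-EA-HFSCs and 0% in LC-HFSCs and non-LC-HFSCs. The body was covered to 15.7% in EA-HFSCs and to 90.6% in non-EA-HFSCs. The peak over the start in non-EA-HFSCs was 2329 bp long with a score of 75.6, and a peak of 10244 bp with a score of 367 lay before it, over Cd3g. Cd3g was covered to 38% in EA-HFSCs, 0% in LC-HFSCs, 73.6% in non-EA-HFSCs and 7.52% in non-LC-HFSCs. The CD3 cluster was thus most widely covered by H3K27me3 in non-EA-HFSCs, and the nearest H3K4me3 peaks lay 14928 to 15414 bp from the Cd3d start, close to the start of Ube4a at 16193 bp.

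Cd207 (chr6:83621201-83627851, minus strand) had the highest H3K27me3 cover of the start window among the members in each list where it was marked. It was 81.6% in EA-HFSCs, 83.1% in non-EA-HFSCs, 88.6% in non-LC-HFSCs and 0% in LC-HFSCs. In EA-HFSCs the start lay under a peak of 6275 bp with a score of 541 and rank 1544 of 25534. The peak over the start had a score of 75.9 in non-EA-HFSCs and of 142 in non-LC-HFSCs. Cd207 lies beside a wide H3K27me3 domain, called in non-EA-HFSCs from 50288 to 4437 bp before the Cd207 start, over the start of the homeobox gene Vax2 at 33407 bp. In LC-HFSCs a peak of that domain was called from 11149 to 6828 bp before the Cd207 start, with a score of 201. The nearest H3K4me3 peak lay 32406 bp from the start in EA-HFSCs and 32565 bp in non-EA-HFSCs, and 84521 and 84547 bp away in LC-HFSCs and non-LC-HFSCs. Unlike for Cd3e and Cd3d, the early anagen populations differed by only 1.52 percentage points of cover.

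**Figure D2:**
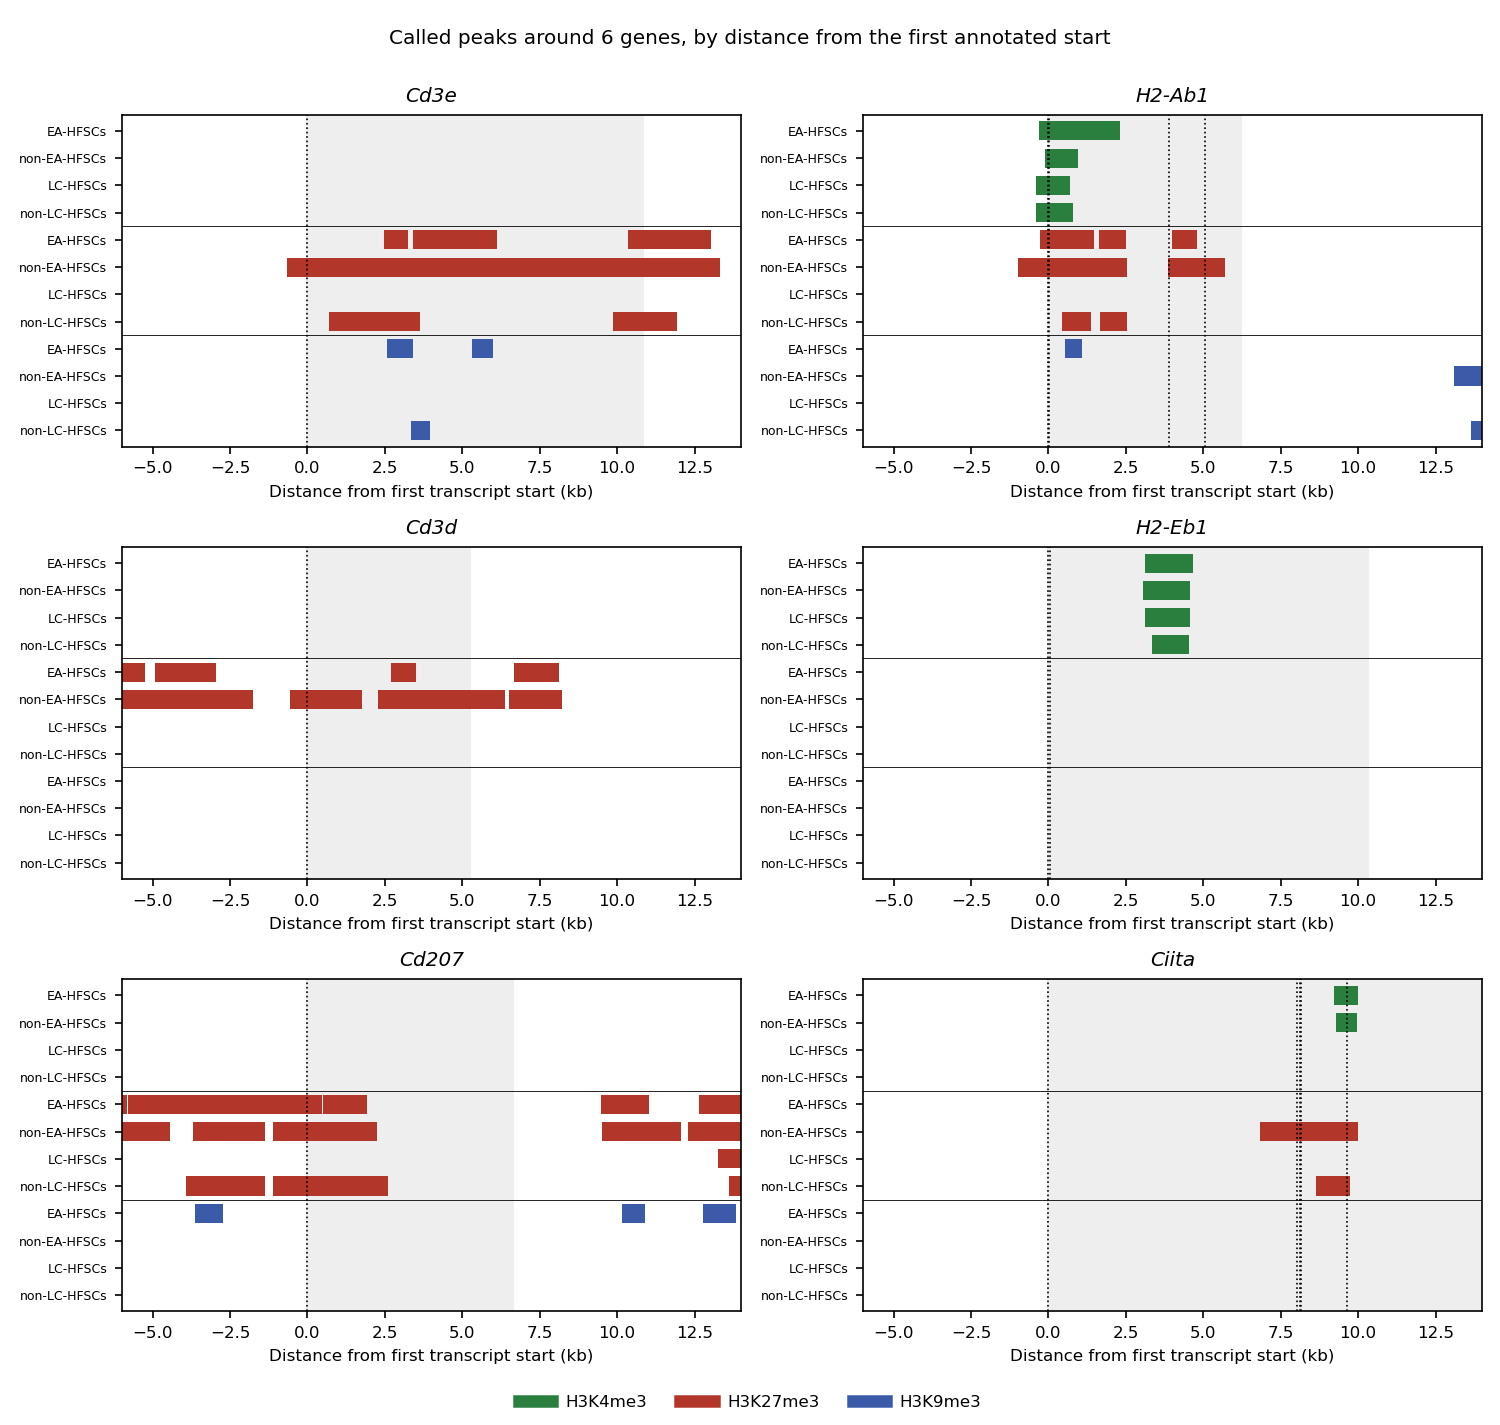
Called peaks by distance from the first annotated start in the direction of transcription (kb), with 1 lane for each population and mark. Grey marks the gene body and dotted lines the annotated starts. H3K27me3 in non-EA-HFSCs spans the whole of Cd3e, and the H3K4me3 peak of H2-Eb1 lies downstream of its starts in all 4 populations.

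The genes of the MHC class II pathway were dealt with from the coactivator to the chains. Their start regions are given because the proximal promoters of this class are known for a Y box, the CCAAT motif bound by NF-Y, and because H3K4me3 was unequal among them. The sequences are from the mm9 genome, from 250 bases before to 50 bases after the start, in the direction of the gene, and capitals mark CCAAT or its reverse complement ATTGG. They lie at chr17:34399904-34400203 (plus strand) for H2-Ab1-001, chr17:34424723-34425022 (minus strand) for H2-Aa-001, chr17:34442578-34442877 (plus strand) for H2-Eb1-001, and chr16:10489626-10489925 (plus strand) for Ciita-206, the Ciita start at which H3K4me3 was called.
H2-Ab1-001: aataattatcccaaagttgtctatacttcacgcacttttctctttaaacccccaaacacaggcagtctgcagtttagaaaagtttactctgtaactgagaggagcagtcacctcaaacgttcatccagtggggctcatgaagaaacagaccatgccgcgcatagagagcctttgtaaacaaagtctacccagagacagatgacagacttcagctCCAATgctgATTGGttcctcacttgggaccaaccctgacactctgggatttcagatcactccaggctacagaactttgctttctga
H2-Aa-001: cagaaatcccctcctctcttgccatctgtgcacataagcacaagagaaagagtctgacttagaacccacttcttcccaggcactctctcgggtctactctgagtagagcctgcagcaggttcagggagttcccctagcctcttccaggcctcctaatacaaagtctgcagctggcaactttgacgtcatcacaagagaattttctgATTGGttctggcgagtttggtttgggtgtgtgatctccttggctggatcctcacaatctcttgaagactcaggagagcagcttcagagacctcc
H2-Eb1-001: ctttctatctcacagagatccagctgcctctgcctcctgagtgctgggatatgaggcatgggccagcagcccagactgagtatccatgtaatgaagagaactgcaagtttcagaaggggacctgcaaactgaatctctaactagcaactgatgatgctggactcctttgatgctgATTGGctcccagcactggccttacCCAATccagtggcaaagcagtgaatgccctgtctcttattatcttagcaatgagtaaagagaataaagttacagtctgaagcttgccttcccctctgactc
Ciita-206: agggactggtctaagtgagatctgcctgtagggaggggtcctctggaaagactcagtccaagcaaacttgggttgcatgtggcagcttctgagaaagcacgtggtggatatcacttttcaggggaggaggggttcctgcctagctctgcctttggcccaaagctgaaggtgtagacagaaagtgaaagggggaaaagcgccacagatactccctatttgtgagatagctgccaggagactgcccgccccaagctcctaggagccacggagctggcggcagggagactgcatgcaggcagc

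CCAAT was matched 36 and 27 bases before the H2-Ab1-001 start, 44 bases before H2-Aa-001 and 75 and 51 bases before H2-Eb1-001, and not in the Ciita-206 window. On either strand it occurred in the windows of 5 of the 9 members (also Cd74 and other starts of Ciita), and at 1 or more starts of 53.4% of all genes. The other motifs looked for on both strands were GCAAC, at 1 or more starts of 51.5% of all genes, TGACG, of 35.2%, and TATAAA, of 24.4%. Counted by start, CCAAT was at 14 of the 23 starts of the members, many of which overlap, and at 34.8% of the 69999 annotated starts. GCAAC was found at 5 members (Cd3d, Cd74, H2-Aa, H2-Eb1 and Ciita), TGACG at H2-Aa and Cd3e, and TATAAA at Ptprc and an internal start of H2-Ab1. Counted by gene, the share of members with CCAAT was close to that of all genes, but it was made up unevenly. The members with CCAAT were the class II pathway genes (Cd74, H2-Aa, H2-Ab1, H2-Eb1 and Ciita), while Ptprc, Cd3e, Cd3d and Cd207 had none.

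Ciita (chr16:10480237-10527657, plus strand) has 5 annotated starts, and H3K4me3 lay at the most downstream of them, that of Ciita-206. A peak of 791 bp with a score of 65.8 covered 5.81% of the merged start windows in EA-HFSCs, and a peak of 666 bp with a score of 65.1 covered 4.89% in non-EA-HFSCs. No peak lay there at late catagen, the nearest being 50678 bp away in LC-HFSCs and 50547 bp in non-LC-HFSCs. Both early anagen peaks were weak, with 91.0% and 89.3% of their lists scoring higher. H3K27me3 covered 23.2% of the windows in non-EA-HFSCs and 8.08% in non-LC-HFSCs, and 0% in both HFSC lists. The H3K27me3 peak in non-EA-HFSCs, of 3161 bp with a score of 168, spanned the H3K4me3 peak of the same population. The H3K27me3 peak in non-LC-HFSCs had a score of 63.2. Of these 4 peaks at a start of Ciita, the H3K27me3 peak in non-EA-HFSCs alone had a score of at least 100.

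Cd74 (chr18:60963502-60972300, plus strand), the invariant chain, had no peak of any mark at its starts. Its body held 1 peak, of H3K9me3 in non-LC-HFSCs, with a score of 42.4. The nearest H3K4me3 peak lay 27113 bp away in EA-HFSCs, 27337 bp in LC-HFSCs, 27121 bp in non-EA-HFSCs and 27499 bp in non-LC-HFSCs. The start of the ribosomal protein gene Rps14 lies 27609 bp upstream. With Ptprc, Cd74 was 1 of 2 members without a peak at a start in all 12 lists, or 22.2%, against 26.8% of all genes.

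H2-Aa (chr17:34406276-34424772, minus strand), which encodes the class II A alpha chain, had no H3K4me3 or H3K27me3 over its starts or body. H3K9me3 covered 7.28% of its start window in non-LC-HFSCs, and it covered 7.57% of its body in non-EA-HFSCs and 3.23% in non-LC-HFSCs. An H3K4me3 peak lay just outside the window, 3738 bp upstream in EA-HFSCs, 3582 bp in non-EA-HFSCs and 3551 bp in non-LC-HFSCs, with scores of 103, 86.9 and 146. In LC-HFSCs the nearest was 21178 bp away. A further H3K4me3 peak, from 8749 to 8152 bp before the start with a score of 61.2, was called in non-EA-HFSCs and in no other list. Of the upstream peaks, both early anagen lists thus held the nearer, and at late catagen it was called in non-LC-HFSCs and not in LC-HFSCs.

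H2-Ab1 (chr17:34400154-34406363, plus strand), which encodes the class II A beta chain, was the member with H3K4me3 over its start in every population. The peak was 2605 bp long in EA-HFSCs, 1117 bp in LC-HFSCs, 1063 bp in non-EA-HFSCs and 1200 bp in non-LC-HFSCs. Median peak lengths in these lists were 2279, 2308, 1671 and 1794 bp. It covered 23.5% of the start window in EA-HFSCs, 10.1% in LC-HFSCs, 9.61% in non-EA-HFSCs and 10.8% in non-LC-HFSCs. The peak of EA-HFSCs was the longest and the other 3 were alike in length, so that cover was 13.9 percentage points lower in non-EA-HFSCs than in EA-HFSCs and 0.750 higher in non-LC-HFSCs than in LC-HFSCs. Its score was 397 in EA-HFSCs (rank 12241 of 21482), 80.8 in LC-HFSCs (12627 of 14718), 526 in non-EA-HFSCs (11878 of 24498) and 387 in non-LC-HFSCs (11207 of 18996). Within the lists the peak ranked near the middle in EA-HFSCs and both non-HFSC populations, and in the lower ranks in LC-HFSCs.

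H3K27me3 was in the same start window of H2-Ab1, with 31.2% covered in EA-HFSCs, 48.5% in non-EA-HFSCs, 16.3% in non-LC-HFSCs and 0% in LC-HFSCs. The longest of these peaks, in non-EA-HFSCs, ran from 981 bp before to 2547 bp after the first start with a score of 240, and spanned the H3K4me3 peak of that population. In EA-HFSCs the scores were 94.4, 66.2 and 44.9. The 2 peaks of non-LC-HFSCs had scores of 53.8 and 54.4 and lay downstream, the closer beginning 393 bp from the nearest start. H2-Ab1 was the member with H3K4me3 and H3K27me3 together in EA-HFSCs and in non-LC-HFSCs, and in non-EA-HFSCs Ciita joined it, making 1, 1 and 2 of 9 members, where 8.93%, 6.62% and 10.8% of all genes had both marks. In sorted bulk populations both marks on the same cells and each mark on other cells cannot be told apart, nor can fewer marked cells and less of a mark per cell.

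H2-Eb1 (chr17:34442828-34453144, plus strand), which encodes the class II E beta chain, had its H3K4me3 peak inside the gene. The peak began 3110 bp after the first start in EA-HFSCs, 3122 bp in LC-HFSCs, 3047 bp in non-EA-HFSCs and 3334 bp in non-LC-HFSCs, and in each list its middle lay in an exon. Its length was 1564, 1464, 1540 and 1220 bp, and its score 453, 153, 556 and 318, in the same order. It covered 15.2%, 14.2%, 14.9% and 11.8% of the gene body. Measured from the nearest start, the edge of the peak lay 2988 bp away in non-EA-HFSCs, just inside the 3000 bp window, and just outside it in the other lists, at 3051 bp in EA-HFSCs, 3063 bp in LC-HFSCs and 3275 bp in non-LC-HFSCs. The start of H2-Eb1 itself was without H3K4me3 in all 4 populations, and the gene held no H3K27me3 or H3K9me3 peak.

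The members were also counted over their gene bodies, where H3K9me3 lay in part over other members than at the starts. H3K4me3 peaks lay over 3 of 9 members in EA-HFSCs and in non-EA-HFSCs, where 63.2% and 62.3% of all genes had one, and over 2 of 9 in LC-HFSCs and non-LC-HFSCs, against 56.2% and 59.2%. By this count H2-Eb1 was marked in all 4 lists, and 0 members differed between HFSCs and non-HFSCs in H3K4me3 at either stage, where 1.59% of all genes had a peak in non-EA-HFSCs and not EA-HFSCs and 2.46% the reverse, and 3.99% in non-LC-HFSCs and not LC-HFSCs and 0.94% the reverse. H3K27me3 peaks lay over 5 of 9 members in EA-HFSCs, against 14.7% of all genes, 6 of 9 in non-EA-HFSCs, against 17.1%, 0 of 9 in LC-HFSCs, against 3.83%, and 4 of 9 in non-LC-HFSCs, against 13.4%. H3K9me3 peaks lay over 3, 1, 0 and 3 members in the same order, against 51.2%, 13.4%, 1.46% and 22.3% of all genes. Those with H3K9me3 were Ptprc, Cd3e and H2-Ab1 in EA-HFSCs, H2-Aa in non-EA-HFSCs, and Cd3e, Cd74 and H2-Aa in non-LC-HFSCs. Ptprc entered the H3K27me3 count through its weak peaks far inside the gene. In H3K27me3, 1 member (Ciita) was counted in non-EA-HFSCs and not EA-HFSCs, against 5.16% of all genes, and 0 the reverse, against 2.78%, while 4 were counted in non-LC-HFSCs and not LC-HFSCs, against 9.62%, and 0 the reverse, against 0.0495%. In H3K9me3, 3 members were counted in EA-HFSCs and not non-EA-HFSCs, against 40.4% of all genes, and 1 (H2-Aa) the reverse, against 2.64%, while 3 were counted in non-LC-HFSCs and not LC-HFSCs, against 21.0%, and 0 the reverse, against 0.175%.

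The starts of the members were poor in CpG. The ratio of observed to expected CpG over 1000 bp centred on a start ranged from 0.121 at Cd207 to 0.348 at Ptprc, while the median over the 69999 starts was 0.460, with quartiles of 0.229 and 0.743. All 9 members fell among the 7948 genes of which every start was below 0.4. In that class 13.8% of genes had H3K4me3 at a start in EA-HFSCs, 9.79% in LC-HFSCs, 14.4% in non-EA-HFSCs and 12.2% in non-LC-HFSCs, against 2, 1, 3 and 1 of the 9 members. H3K27me3 was at 8.22%, 0.843%, 9.18% and 5.66% of the class, against 4, 0, 5 and 4 members. As shares, the members stood at 22.2%, 11.1%, 33.3% and 11.1% for H3K4me3, above the class in 3 lists and below it in non-LC-HFSCs, on counts of 1 to 3 genes. For H3K27me3 they stood at 44.4%, 0%, 55.6% and 44.4%, above the class wherever a member was marked. For H3K9me3 in EA-HFSCs the 33.3% of members lay below all genes (48.0%) and above the class (11.9%), and in non-LC-HFSCs their 11.1% lay below all genes (14.2%) and above the class (4.5%). The intragenic H3K4me3 peak of H2-Eb1 covered sequence with a CpG ratio of 0.565 to 0.595, whereas the ratio at its starts was 0.131 and 0.135.

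**Figure D3:**
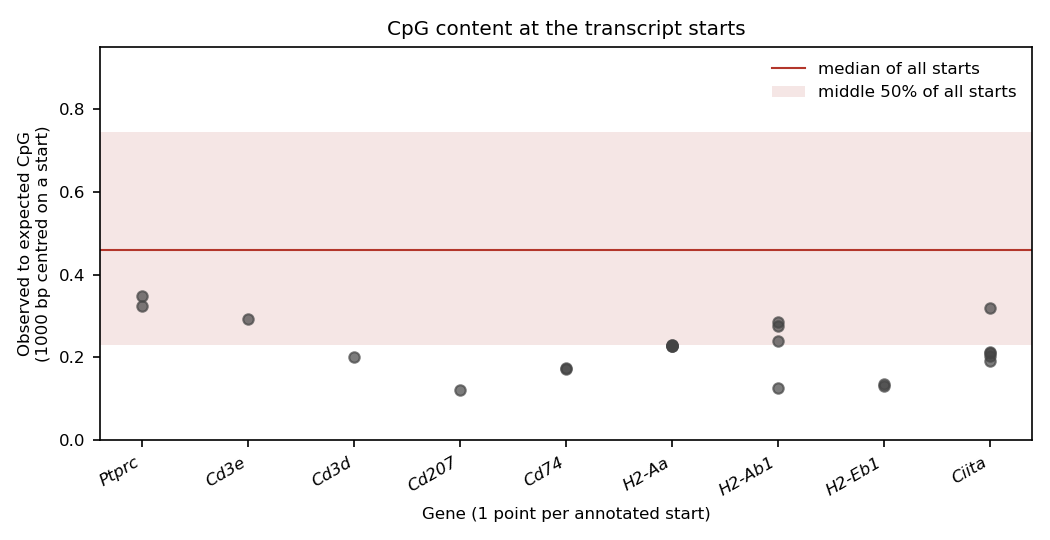
Observed to expected CpG ratio in the 1000 bp centred on each annotated start of the 9 genes, with 1 point per start, and the median (line) and middle 50% (band) over all starts. Every point lies below the median of 0.460.

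Other genes of antigen presentation and its control were described from lists. The promoter factors (7 genes, among them Rfx5 and the NF-Y subunits), the class I presentation genes (13, among them B2m and H2-K1) and the interferon gamma signalling genes (8, among them Irf1) had an H3K4me3 peak at a start in all 4 lists and no H3K27me3 peak there. An H3K4me3 peak lay at a start in all 4 lists for 12232 of the 22225 protein-coding genes. Of 11 class II chaperone and costimulation genes, H3K4me3 was at 3 in each HFSC list and at 2 in each non-HFSC list, beside 56.0% to 62.6% of all genes. H2-DMa, a peptide exchange subunit, had it in all 4 lists with 22.6% to 27.1% of its window covered, as did Ifi30, a lysosomal thiol reductase whose window also holds the start of Pik3r2. H2-DMb2 had it in the HFSC lists alone, with 1.97% and 0.262% covered. At early anagen H3K27me3 was at 1 of the 11 genes in HFSCs and 5 in non-HFSCs, beside 14.1% and 16.8% of all genes, and at late catagen at 0 and 3, beside 3.74% and 13.0%. The 4 genes with it in non-EA-HFSCs and not EA-HFSCs stood beside 5.36% of all genes, and the 3 with it in non-LC-HFSCs and not LC-HFSCs beside 9.28%. It was widest at Cd40, a costimulatory receptor, with 59.0% of its window covered in EA-HFSCs, 83.7% in non-EA-HFSCs and 46.1% in non-LC-HFSCs. Cd80, Ctss, H2-Oa and H2-DMb1 had neither mark at a start.

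**Figure D4:**
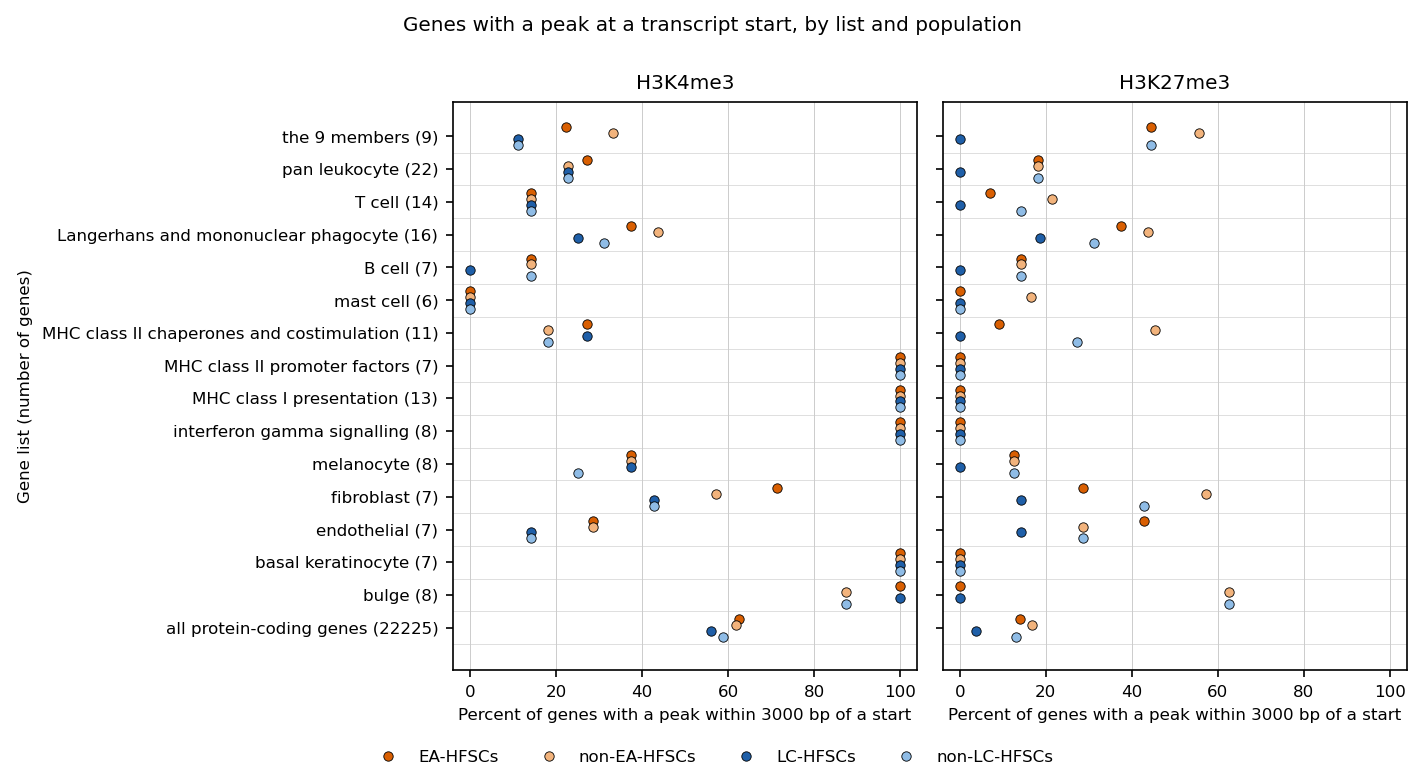
Percent of the genes of each list (number of genes in brackets) with a peak within 3000 bp of a start, for H3K4me3 and H3K27me3, with 1 point per population. The promoter factor, class I, interferon gamma and basal keratinocyte lists lie at 100% for H3K4me3, and the leukocyte lists lie below the 56.0% to 62.6% of all protein-coding genes.

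A wider set of leukocyte genes gave equal H3K4me3 counts at early anagen. Of 65 genes in 5 lists (pan-leukocyte, T cell, Langerhans cell and mononuclear phagocyte, B cell and mast cell), H3K4me3 was at 15 in EA-HFSCs, 11 in LC-HFSCs, 15 in non-EA-HFSCs and 13 in non-LC-HFSCs. It was absent from the starts of 48 genes in all 4 populations, including Cd53, Cd52, Laptm5, Tyrobp, Itgb2, Cd2, Itgax, Csf1r and Cpa3, where 35.8% of all genes were without it. No gene had it in both non-HFSC lists and in neither HFSC list, a pattern of 0.445% of all genes. Aif1, a macrophage gene, was the 1 gene with it in non-EA-HFSCs and not EA-HFSCs, with 10.6% of its window covered, and Cd37, a leukocyte tetraspanin, the 1 with the reverse, beside 1.43% and 2.19% of all genes. Sfpi1 (PU.1), Irf8 and Cd79a had it in non-LC-HFSCs and not LC-HFSCs, and Batf3 the reverse, beside 3.69% and 0.801% of all genes. In non-LC-HFSCs it covered 0.677% of the Sfpi1 window, 7.18% of that of Irf8 and 9.97% of that of Cd79a. Of these genes, Irf8 alone had the peak near one of its own starts. In LC-HFSCs it covered 44.0% of the Batf3 window. Sfpi1 and Irf8 had it in EA-HFSCs as well. The 9 genes with H3K4me3 in all 4 lists stood beside 12232 of the 22225 protein-coding genes. They were Lcp1, Vav1, Ikzf1, Btk, Lck, Ccr10, Cd68, Zbtb46 and Ly75. The windows of Btk, Ccr10, Cd68 and Lcp1 hold the start of another protein-coding gene as well.

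By list, and again with the HFSC populations before the non-HFSCs and early anagen before late catagen, H3K4me3 was at 6, 5, 5 and 5 of the 22 pan-leukocyte genes, at 2 of the 14 T cell genes in each population, and at 6, 4, 7 and 5 of the 16 Langerhans cell and phagocyte genes. It was at 1, 0, 1 and 1 of the 7 B cell genes and at none of the 6 mast cell genes. H3K27me3 was at 12, 3, 16 and 12 of the 65 genes, or 18.5%, 4.62%, 24.6% and 18.5%, beside 14.1%, 3.74%, 16.8% and 13.0% of all genes. It was at 5 of them (Nckap1l, Cd2, Lck, Itgam and Tpsb2) in non-EA-HFSCs and not EA-HFSCs, beside 5.36% of all genes, and at 1, Dock2, in the reverse, beside 2.59%. At late catagen 9 had it in non-LC-HFSCs and not LC-HFSCs, beside 9.28% of all genes, and 0 the reverse, beside 0.0585%.

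Genes of other skin cell types gave a scale for this. In the same order of populations, H3K4me3 was at 3, 3, 3 and 2 of 8 melanocyte genes, at 5, 3, 4 and 3 of 7 fibroblast genes and at 2, 1, 2 and 1 of 7 endothelial genes. H3K27me3 was at 1, 0, 1 and 1 of the melanocyte genes, 2, 1, 4 and 3 of the fibroblast genes and 3, 1, 2 and 2 of the endothelial genes. As shares these were 28.6%, 14.3%, 57.1% and 42.9% for the fibroblast genes and 42.9%, 14.3%, 28.6% and 28.6% for the endothelial genes, near or below the 44.4%, 0%, 55.6% and 44.4% of the members except in LC-HFSCs. H3K4me3 was at all 7 basal keratinocyte genes in every population, with H3K27me3 at none. Of 8 bulge genes, H3K4me3 was at 8, 8, 7 and 7, and H3K27me3 at 0, 0, 5 and 5. Among these is Tcf3, a symbol that has also been used for Tcf7l1, with H3K4me3 and no H3K27me3 in all 4 lists. Of all genes, 62.6%, 56.0%, 61.8% and 58.9% had H3K4me3 at a start, and 14.1%, 3.74%, 16.8% and 13.0% had H3K27me3. The 65 leukocyte genes stood at 23.1%, 16.9%, 23.1% and 20% for H3K4me3, and the basal keratinocyte genes at 100%.

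Some other genes had cover much like that of a member over the 12 lists, measured as the mean absolute difference in percent of the start window. For Cd3e these were Aldoart2 (1.55 percentage points), Tmem91 (1.58) and Eras (1.61), for Cd3d Tifab (0.576), Expi (0.608) and 1810065E05Rik (0.657), and for Cd207 Sox10 (1.92), C530025M09Rik (2.10) and Slc18a2 (2.86). For H2-Ab1 they were Rnf207 (2.23), Lyn (2.68) and Lingo1 (2.71), and for Ciita Coro2b (0.759), Rab3b (1.03) and Cda (1.04). For H2-Aa, with H3K9me3 in 1 list alone, they were Gm17266 (0.0152), Tnc (0.0236) and F12 (0.0250), and for H2-Eb1, which was near 0% throughout, 4632433K11Rik (0.00816), Gm10985 (0.0168) and 1110002E22Rik (0.0179). The last is among the 5949 genes without a peak at a start in all 12 lists, and was taken from equal genes by symbol order. None of the genes named lies within 50 kb of the member it resembles.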

How the data were processed

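The authors trimmed single-end reads (Trimmomatic 0.22 in the submitters' processing notes), aligned them to mm9 with Bowtie2, removed alignments of low quality, pooled independent experiments and ran MACS with each population's IgG as control, at p-values of 1e-05 for H3K4me3 and 0.0001 for the other marks. The deposited score is 10 times the negative log10 of a peak's p-value. It depends on depth, which the lists do not give, and was used to describe or filter peaks within a list. Broad marks had not reached saturation per the study's methods, so a missing peak is not a missing mark.

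Peaks, starts and gene bodies were joined here at 1 bp of overlap in Python 3.11.15 with numpy 2.4.6 and pandas 2.3.3, on the NCBIM37 (mm9) sequence and GENCODE vM1, with gene models of 1 symbol merged. The join was tested on simulated data. Windows around all starts of a gene were merged, so their length varies between genes. With 1 list per population and mark no test was possible and no p-value is given. The MHC region differs between mouse strains, and its effect on uniquely mapped reads of CD1 x FVB mice was not tested. Of 142 genes in 14 further lists, 141 were matched by symbol, 2 through an older one. All 9 genes were named in full, with the 3 genes closest in cover for the 7 members with a peak at a start, and the list genes split by population. The members and lists were chosen with earlier results of these data known. The alternatives were other windows, starts, overlaps and score limits.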

Additional observations from a re-analysis of the deposited data

Results flagged for a closer look

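H2-Ab1 is given here because the difference in its H3K4me3 cover had opposite signs at the 2 stages, although at late catagen it was under 1 percentage point. The share of the start window under H3K4me3 peaks in non-EA-HFSCs minus that in EA-HFSCs was -13.9 percentage points, and in non-LC-HFSCs minus LC-HFSCs it was 0.750 percentage points. Each value compares 1 list with 1 other, and the difference between the stages was not tested. By score within its own list the peak ranked 12241 of 21482 in EA-HFSCs, 11878 of 24498 in non-EA-HFSCs, 12627 of 14718 in LC-HFSCs and 11207 of 18996 in non-LC-HFSCs. The EA-HFSC peak was 2605 bp long and the other 3 were between 1063 and 1200 bp. H3K27me3, given beside it, covered 31.2% of the same window in EA-HFSCs, 48.5% in non-EA-HFSCs, 0% in LC-HFSCs and 16.3% in non-LC-HFSCs.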

How the results depend on the processing

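Of 264 counts of members over 36 results and 9 alternatives, 202 stayed within 1.5 times the reported count and 62 did not. Part of the 202 could not move. No H3K4me3 peak scored below 50, so a score of at least 50 left that mark unchanged. Lists of equal length left LC-HFSCs, the shortest list of each mark, unchanged. A population with 0 members could not gain any under a stricter setting. Populations are given below in the order EA-HFSCs, LC-HFSCs, non-EA-HFSCs, non-LC-HFSCs. Over the gene body the share of all genes was not counted under the alternatives. The body counts below therefore have no share to be read against. Lists of unequal length, whose peaks are given without read counts, limit every absence. No paired analysis was possible because each population and mark has 1 list, pooled by the authors, and no result comes from a test.

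Every list was shortened to its best-scoring peaks, down to the length of the shortest list for that mark. H3K27me3 at the start was then at 1, 0, 0 and 0 members, beside 5.08%, 3.74%, 6.16% and 5.22% of all genes. Over the body it was at 1, 0, 0 and 0. H3K9me3 was at 0 members throughout, at the start, where 0.508% to 3.47% of all genes had it, and over the body. H3K4me3 in EA-HFSCs was at 1 (58.4% of all genes). The member with H3K27me3 in non-EA-HFSCs and not EA-HFSCs gave way to 0, the reverse went from 0 to 1 (2.29% and 1.21% of all genes), and the late catagen H3K27me3 contrast (2.38%) and the H3K9me3 contrasts (3.44% in EA-HFSCs alone, 1.06% in non-LC-HFSCs alone) became 0.

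With a score of at least 100, H3K4me3 at the start was at 1 and 0 members in the 2 HFSC lists (60.7% and 51.1% of all genes), and 1 member was counted in non-LC-HFSCs and not LC-HFSCs (6.07%). H3K4me3 over the body was at 1 in LC-HFSCs. H3K27me3 at the start was at 1 in EA-HFSCs and 2 in non-LC-HFSCs (9.95% and 9.14%), over the body at 2 and 2, with 4 members in non-EA-HFSCs and not EA-HFSCs and 2 in non-LC-HFSCs and not LC-HFSCs, beside 4.04% and 7.97% of all genes. H3K9me3 was at 0 members at the start, where 0.148% to 16.7% of all genes had it, and over the body. With a score of at least 50, H3K9me3 in non-LC-HFSCs was at 0 starts (7.33% of all genes), the contrast with LC-HFSCs was 0 (7.05%), and 1 body was covered.

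With a window of 1000 bp, H3K27me3 in EA-HFSCs was at 2 members and H3K9me3 at 1, beside 11.7% and 44.0% of all genes. H3K9me3 in non-LC-HFSCs was at 0 (10.3%). The members in non-EA-HFSCs and not EA-HFSCs were 0 for H3K4me3 and 3 for H3K27me3, beside 1.20% and 4.94% of all genes. Of the H3K9me3 contrasts, 1 member was counted in EA-HFSCs alone at early anagen (43.1%), and 0 in the non-HFSCs at late catagen (10.1%). With 2500 bp, H3K9me3 in EA-HFSCs and its contrast were at 1, beside 47.2% and 44.9% of all genes. The members in non-EA-HFSCs and not EA-HFSCs were then 0 for H3K4me3 and 2 for H3K27me3, beside 1.36% and 5.19%. With 5000 bp, an alternative chosen after seeing the data, H3K4me3 was at 4, 2, 4 and 3 members, beside 64.0%, 57.3%, 63.3% and 60.3% of all genes, with 0 in non-EA-HFSCs and not EA-HFSCs (1.55%) and 1 in non-LC-HFSCs and not LC-HFSCs (3.84%), and H3K9me3 in non-LC-HFSCs and its contrast were at 3 (17.7% and 17.1%).

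With the gene's own first start alone, H3K4me3 was at 1 member in each early anagen list. Of all genes, 60.5% had it in EA-HFSCs and 59.7% in non-EA-HFSCs. The early anagen contrasts of H3K4me3 and H3K27me3 were 0 (1.44% and 5.02% of all genes). With at least 50% of the peak in the window, the H3K4me3 contrast was 0 (1.75%), and H3K27me3 was counted in non-EA-HFSCs and not EA-HFSCs at 2 members (4.85%) and the reverse at 1 (3.12%). With starts of protein-coding transcripts alone, none of 24 counts moved beyond that limit. This setting could hardly move them, since only H2-Aa and H2-Ab1 among the members have starts of other transcript types. Those of H2-Aa lie between its protein-coding starts, so that only the window of H2-Ab1 was changed.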
